A study of Sus scrofa with 31 samples.

Results

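The cytosolic ribosomal protein genes were followed in pig (Sus scrofa) myocardium through cold storage of the heart and through warm perfusion after storage. A gene was taken when its deposited name was RPL or RPS followed by a number, with an optional letter or L1 suffix, or was RPLP0, RPLP1, RPLP2 or RPSA; the RPS6K kinases were left out. This gave 69 gene IDs with 68 symbols, of which 67 were among the 21313 genes of the storage table and 41 among the 25149 genes of the warm perfusion table, with 39 IDs in both. Names were carried between the tables by gene ID, because 63 of the 67 were named in the storage table itself and 28 of the 41 in the other. RPS26 stands for a different gene ID in each table. Another 6 genes that carry no name in the storage table are ribosomal proteins by a reference table (RPS2, RPS15A, RPS25, RPL7A, RPL13A and RPL36A) and stayed outside the rule.

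In the first arm, hearts of 6 pigs were sampled at 0, 12, 24 and 48 h of storage. Pigs 1, 3 and 5 were stored under the condition labelled SCS and pigs 2, 4 and 6 under the condition labelled HOPE, which gave 24 libraries in 8 groups of 3. Neither abbreviation is spelled out in the labels; in heart preservation they usually stand for static cold storage and hypothermic oxygenated perfusion. The second arm sampled hearts that had been perfused warm for 2 h after storage (NMP, normothermic machine perfusion); it holds 6 libraries of hearts from HOPE, in pairs for 3, 24 and 48 h, and a lone library from SCS for 24 h. Breed, age and sex of the animals are not given in the sources used here. The labels name cardiomyocytes as the cell type, but biopsies of whole myocardium were sequenced. In the storage arm the 9 cardiomyocyte markers found were read in every library and summed to 956709 to 1697800 normalised counts, and the endothelial, fibroblast and leukocyte marker lists were read as well. Whole reads per storage library ran from 19722065 to 35099406. The depth of the NMP libraries is unknown because only values scaled to an equal total, taken here as TPM, were deposited. In bulk tissue, fewer cells of a type and less RNA per cell cannot be told apart.

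Ribosomal proteins build the small (RPS) and large (RPL) subunits of the ribosome around ribosomal RNA, and the acidic proteins RPLP0, RPLP1 and RPLP2 form the stalk that recruits translation factors. They are made in matched amounts, and their short mRNAs begin with a 5' terminal oligopyrimidine (TOP) tract through which mTOR signalling and LARP1 set how strongly they are translated. Heart and skeletal muscle also express RPL3L, a striated muscle paralogue that can take the place of RPL3 near the catalytic centre. The members lie on many chromosomes: in the RefSeq annotation of Sscrofa11.1, RPL37 is on chromosome 16 at 25800883 to 25803526, RPL35 on chromosome 1 at 265637266 to 265642278, RPL3 on chromosome 5 at 8922697 to 8929768, RPL3L on chromosome 3 at 40004907 to 40016702 and RPLP0 on chromosome 14 at 40219196 to 40223943.

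Every one of the 67 members was read in all 24 storage libraries. The least abundant by mean was RPL26L1, a paralogue of RPL26, with a lowest value of 341 normalised counts in HOPE pig 4 at 48 h. Counts in the storage arm are not divided by gene length, so members are compared there only with themselves. RPS24, RPL10, RPLP0 and RPL4 were among the 5 highest by mean count. The values after NMP were taken as TPM, which are divided by length, although their equal column sums alone do not show that division. In the 6 HOPE libraries after NMP, RPS3, a small subunit protein at the mRNA entry channel, stood at 1216 to 1521 TPM. The paralogues were far lower on that scale, with RPL7L1, a ribosome assembly factor, at 13.4 to 24.5 TPM and RPL10L, a paralogue of RPL10 known from testis, at 1.57 to 5.33 TPM.

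Ribosomal protein mRNA took a larger share of nuclear gene expression, though not of all values, at each later time than at 0 h in every SCS heart, and a smaller share in every HOPE heart. The share was the sum of the members over the sum of all genes other than the 13 mitochondrially encoded ones. Over 0, 12, 24 and 48 h the share ran through 4.74%, 4.84%, 5.02% and 4.95% in SCS pig 1, through 5.10%, 6.32%, 6.96% and 7.48% in pig 3 and through 6.27%, 6.91%, 7.40% and 6.88% in pig 5. Over the same times it ran through 3.15%, 3.04%, 2.88% and 2.78% in HOPE pig 2, through 3.94%, 3.59%, 3.46% and 3.03% in pig 4 and through 5.79%, 4.79%, 4.60% and 5.02% in pig 6. All 3 SCS libraries lay above all 3 HOPE libraries at 12 and 24 h, while the groups overlapped at 0 and 48 h. HOPE pig 6 lay above SCS pigs 1 and 3 at 0 h and above SCS pig 1 at 48 h. SCS pig 1 moved least of the SCS pigs, and HOPE pig 6 was the highest HOPE pig at every time.

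**Figure D1:**
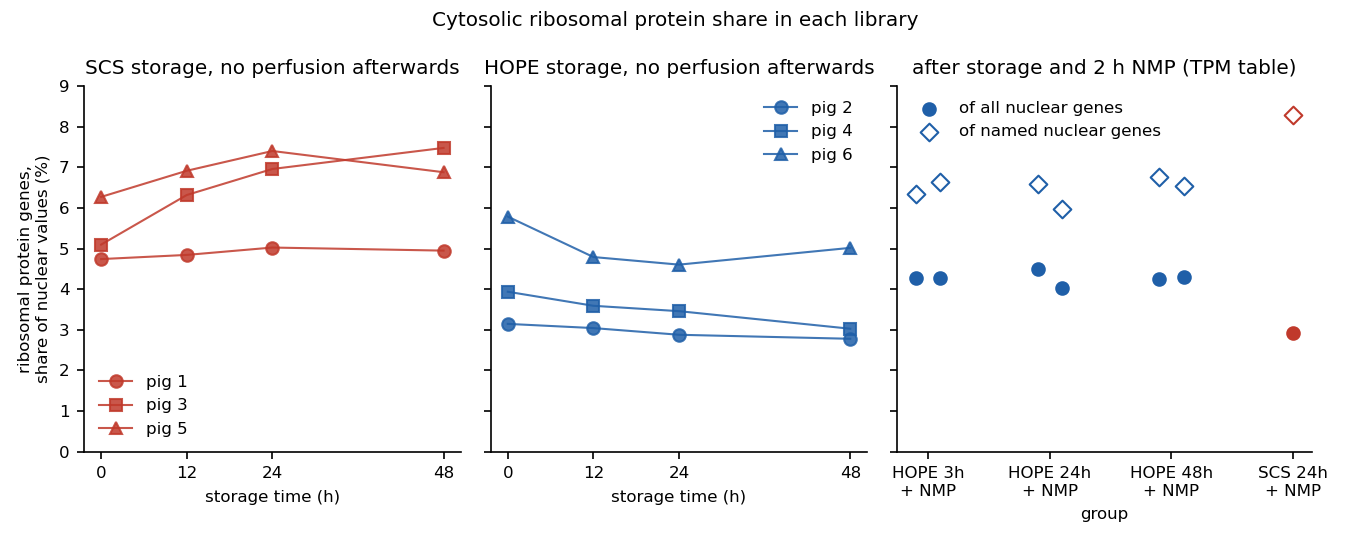
Share of the nuclear total, in percent, taken by the ribosomal protein genes in each library, against storage time in h for SCS pigs (left) and HOPE pigs (middle), 1 line a pig, and by group after NMP (right), 1 point a library. The storage panels sum 67 members in normalised counts and the right panel 41 members in TPM. Levels are therefore not compared between the storage panels and the right panel. In the left panel all 3 lines of this nuclear share end above their start (48 h mean 6.43%), in the middle panel all 3 end below it (48 h mean 3.61%), and the right panel shows the lone SCS library lowest among all nuclear genes (filled) and highest among named nuclear genes (open).

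The group means were 5.37% ± 0.80 (SD, n = 3) at 0 h and 6.43% ± 1.32 at 48 h in SCS, and 4.29% ± 1.36 and 3.61% ± 1.23 in HOPE. The change within a pig from 0 to 48 h averaged 1.07 percentage points in SCS (range 0.208 to 2.38) and -0.682 in HOPE (range -0.910 to -0.367). At 12 and 24 h the mean changes were 0.655 and 1.09 points in SCS and -0.481 and -0.643 in HOPE. All 18 within-pig changes had the same direction when small subunit and large subunit genes were summed apart, and when only nuclear genes with a name made up the denominator. No test was made on this sum, since its members were chosen with earlier results known. Over all values, mitochondrially encoded genes included, the picture differed: the share at 48 h in SCS was 2.57%, 2.99% and 1.21%, below the 3.04%, 3.12% and 2.98% of the same pigs at 0 h. Mitochondrially encoded genes held 33.1% to 82.4% of the SCS libraries and 29.0% to 39.5% of the HOPE libraries, the highest value being SCS pig 5 at 48 h.

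The median member moved with the share. With nuclear-total scaling, the median member in the 48 h library stood above the same pig's 0 h library by 0.05, 0.58 and 0.11 (log2) in SCS pigs 1, 3 and 5, while the median of all tested genes was -0.30, -0.17 and -0.16. Of the 67 members 42, 65 and 41 were above their 0 h value in these pigs, against 30.9%, 33.5% and 39.5% of all genes. In HOPE pigs 2, 4 and 6 the median member was at -0.19, -0.40 and -0.23, against -0.06, 0.00 and -0.17 for all genes. There 0, 0 and 5 of the 67 members were above their 0 h value, against 40.8%, 49.7% and 36.3% of all genes. In the deposited scaling, 30 members were up in all 3 SCS pigs and down in all 3 HOPE pigs at 48 h, against 2.32% of all tested genes. With nuclear-total scaling this count was 34, against 2.04% of all genes, and with scaling to all counts it was 0. Among the 30 were RPL37, RPL35, RPL38, RPL19, RPS19 and RPS6.

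**Figure D2:**
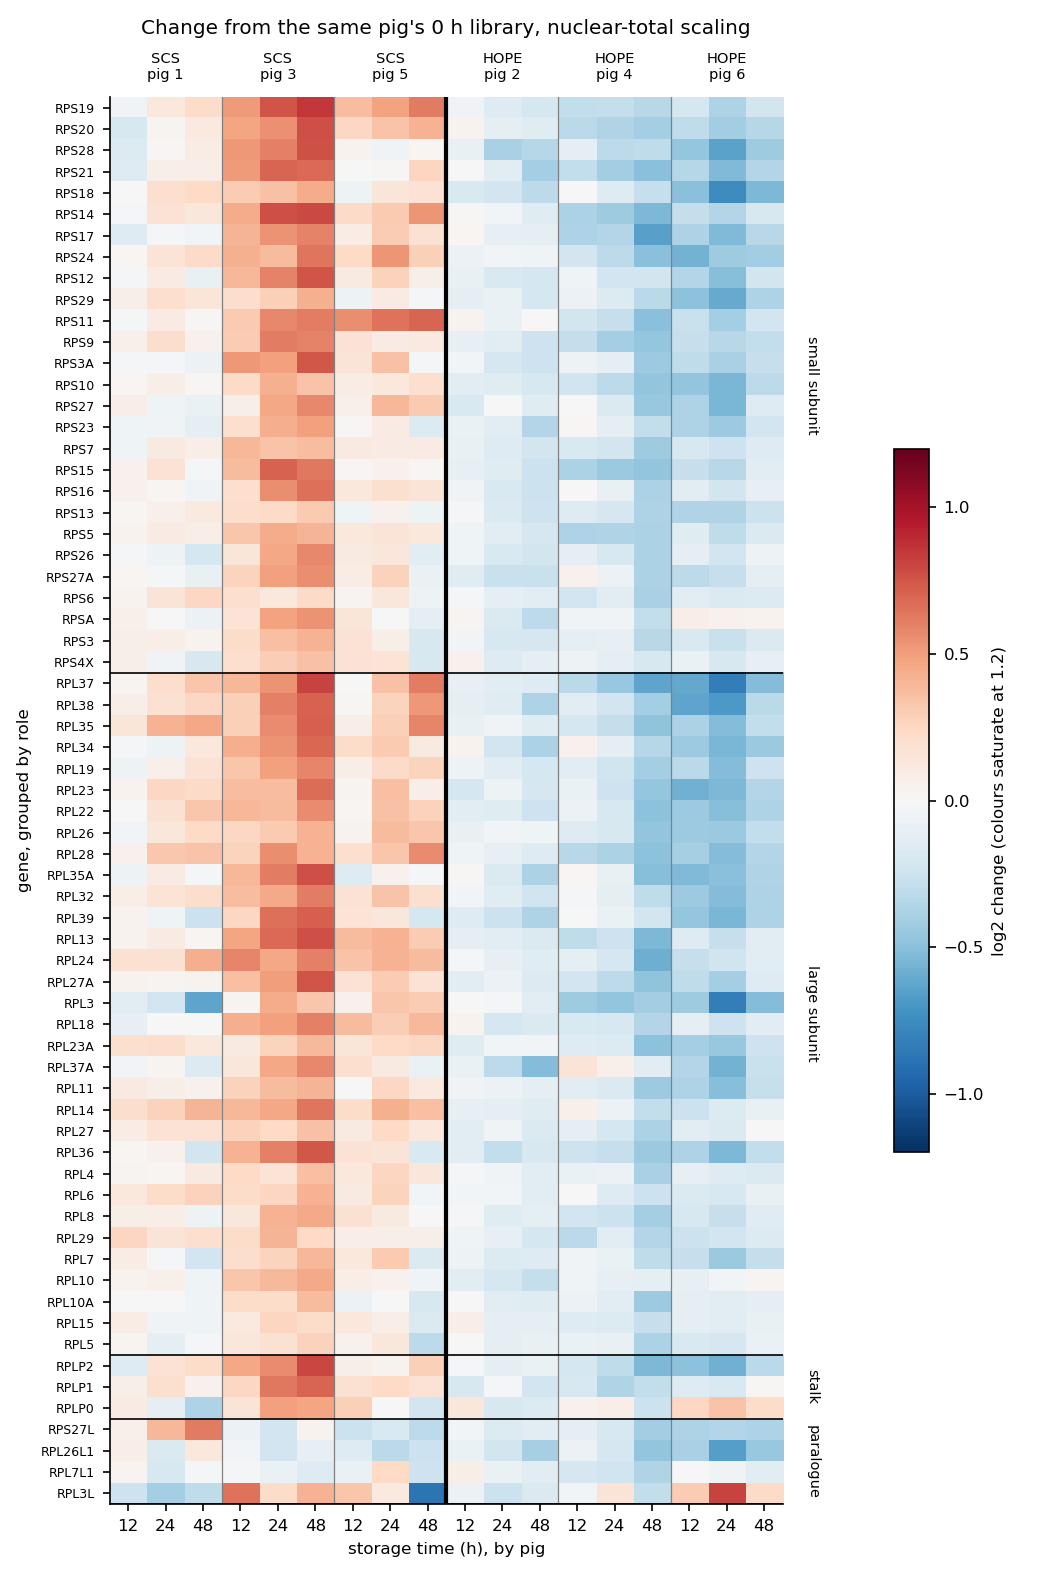
Log2 change of ribosomal protein genes from the same pig's 0 h library with nuclear-total scaling, 1 row a gene grouped by role and 1 column a pig and time; red is higher, blue is lower and colours saturate at the ends of the scale. SCS columns are mostly red, palest in pig 1, and HOPE columns mostly blue; RPL3L and RPLP0 are among the rows that break the pattern.

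No single member passed between storage times in the limma fit without pairing. Against 0 h, 0 of 67 members passed at 12, 24 or 48 h of SCS, where 0.0% of all 14141 tested genes passed as higher, and the members' median was 0.26, 0.39 and 0.42 (log2). At an unadjusted p of 0.05, 0, 0 and 8 members passed, the 8 as higher, against 3.38% of all genes; edgeR and DESeq2 on the recovered reads called 0 at each time. In HOPE 0 members passed at any time, also among 0.0% of all genes, with medians of -0.17, -0.13 and -0.18, none at the unadjusted threshold, and 0 by edgeR and by DESeq2. All genes had medians between -0.03 and 0.02 in these 6 comparisons. The SCS members of smallest p at 48 h were RPL24, whose protein forms a bridge between the subunits, at 0.67 ± 0.25 (SE), and RPL35, which lies by the exit tunnel, at 0.79 ± 0.29, both with a limma adjusted p of 0.522.

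Because each pig gave all 4 of its libraries, the pig was also fitted as a block, and then 20 members were higher at 48 h than at 0 h of SCS, where 1.08% of all genes were called higher. With nuclear-total scaling and the block 9 were higher, against 0.58% of all genes. In HOPE the blocked fit called 0 members. The 20 comprised 6 small subunit, 13 large subunit and 1 stalk gene. RPL35 rose by 0.79 ± 0.12 (blocked limma, adjusted p = 0.013), RPL37 by 0.78 ± 0.14 (adjusted p = 0.0163), RPS19, the gene most often mutated in Diamond-Blackfan anaemia, by 0.76 ± 0.13 (adjusted p = 0.013) and the stalk gene RPLP2 by 0.63 ± 0.15 (adjusted p = 0.0407). The count depended on which pigs were kept. It was 14, 8 and 8 without pigs 1, 3 and 6 (against 1.42%, 1.27% and 0.375% of all genes). It was 0 without pig 2, 4 or 5, or without the 48 h library of SCS pig 5. Leaving out a pig also leaves a smaller group, and without the block the members' median stayed at 0.33 to 0.52 (log2).

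Already at 0 h every member was lower on average in HOPE pigs than in SCS pigs, but none passed. The members' median was -0.35 (log2) against -0.02 for all genes, 0 of 67 passed in limma (0 at the unadjusted threshold, and 0 by edgeR and DESeq2) and 0.0% of all genes were called lower. With nuclear-total scaling, 3 members had all HOPE libraries below all SCS libraries at 0 h, a share below the 6.17% of all genes with that order. At 12 h the median was -0.82, no member passed in limma or edgeR, DESeq2 called 1, and 0.0141% of all genes were called lower in limma. Before adjustment 57 members passed as lower, against 8.39% of all genes. Without pig 6, 46 members passed at 12 h, against 4.56% of all genes. In 31 members every HOPE library was below every SCS library at 12 h, against 12.0% of all genes.

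At 24 h of storage HOPE hearts held fewer normalised counts of nearly every member, and RPL32, a large subunit protein, passed the test. In SCS pigs 1, 3 and 5 RPL32 stood at 13383, 15955 and 17536 normalised counts at 24 h, and in HOPE pigs 2, 4 and 6 at 6278, 7988 and 9830. The highest HOPE library lay below the lowest SCS library. The log2 fold change was -0.98 ± 0.25 (limma, adjusted p = 0.0491), and 0.771% of all genes were called lower. The call was lost with edgeR, with scaling to all counts, without a filter on low values and with only the libraries compared, each of which called 0 members. The median over members was -0.91 against 0.01 for all genes, and 51 members had no overlap between the groups, against 12.9% of all genes. With the pig block 51 members were lower, against 4.09% of all genes, and with nuclear-total scaling and the block 54, against 3.73%. HOPE and SCS were different pigs, so in this comparison the block pairs no libraries. It applies 1 within-pig correlation to all genes and takes the spread from all 24 libraries. The counts of this comparison also depended on which pigs were kept, while the unblocked median over members stayed between -1.16 and -0.70. Without pigs 1 and 6 the unblocked count was 35 and 57, against 9.06% and 7.18% of all genes. The blocked count was then 53 and 60, against 11.3% and 8.21%. Without any of pigs 2, 3, 4 and 5 both counts were 0.

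At 48 h 22 of the 67 members were lower in HOPE than in SCS hearts and none was higher in the deposited scaling, where 2.41% of all tested genes were called lower; scaling to all counts turned this direction, as given below. All 67 fold changes were negative, with a median of -0.99 (log2), an interquartile range of -1.15 to -0.79, and a median of 0.02 over all genes. In 44 members every HOPE library was below every SCS library, against 10.2% of all genes. With nuclear-total scaling the test again called 22 lower, against 2.04% of all genes, the median was -0.93, and 29 members did not overlap, against 7.91%. With the block by pig the count was 56 lower, against 4.63% of all genes, and the block with nuclear-total scaling gave 50, against 3.69%. As at 24 h, the block pairs no libraries between HOPE and SCS, and only 3 pigs stand on each side. In a fit of only the libraries compared, no member passed.

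By role, 7 of 28 small subunit genes passed (median -1.03, range -1.33 to -0.42), 14 of 32 large subunit genes (median -0.98, range -1.59 to -0.38), 0 of 3 stalk genes and 1 of 4 paralogues. With the block these counts were 26, 26, 2 and 2. Members that were not called with the block were RPL8, RPS3, RPL7, RPL10, RPL10A, RPS4X, RPL15, RPL5, RPL7L1, RPLP0 and RPL3L, whose fold changes ran from -0.67 for RPL8 to -0.02 for RPL3L.

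**Figure D3:**
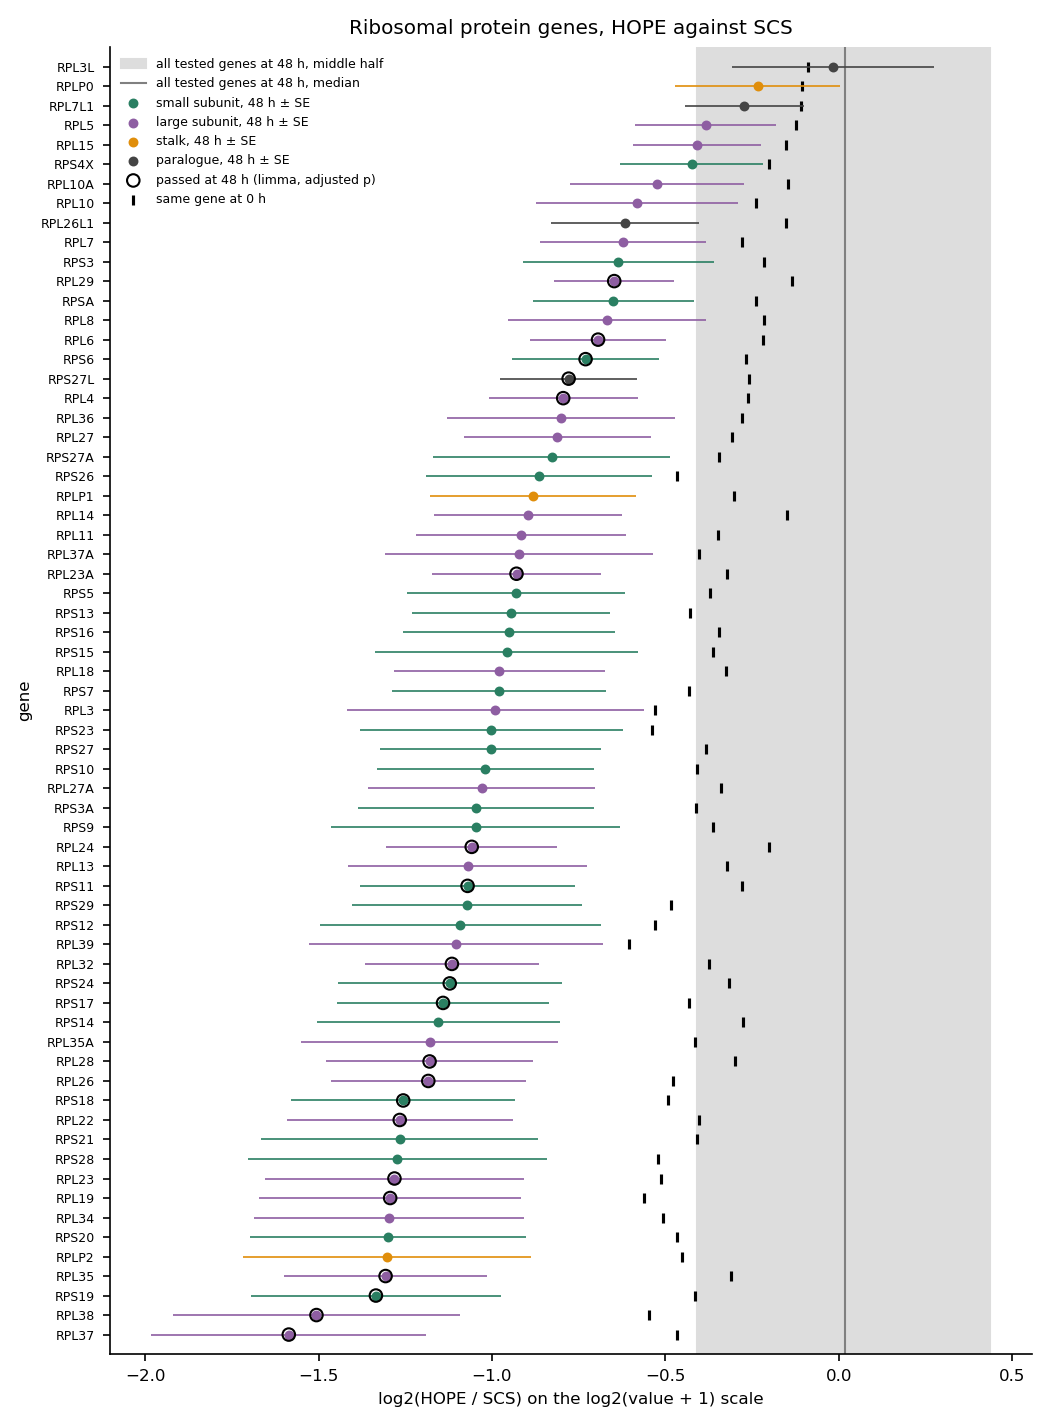
Log2 fold change of ribosomal protein genes, HOPE against SCS at 48 h, with the SE as a bar and a colour for the role; rings mark genes that passed in limma and ticks show the same gene at 0 h. The points lie left of the grey band (interquartile range of all tested genes) for most members, the ringed genes run from RPL37 at -1.59 to RPL29 at -0.65, and RPL3L and RPLP0 lie nearest to 0.

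Among the small subunit genes, RPS19 was at 9428, 10542 and 13816 normalised counts in SCS pigs 1, 3 and 5 at 0 h and at 13534, 20940 and 23569 at 48 h. In HOPE pigs 2, 4 and 6 RPS19 was at 5955, 8120 and 12021 at 0 h and at 5486, 6590 and 11515 at 48 h. Every SCS pig ended higher than it began and every HOPE pig lower, and the groups overlapped at 0 h but not at 48 h. At 48 h the RPS19 fold change was -1.33 ± 0.36 (limma, adjusted p = 0.039).

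RPS6, the small subunit protein that S6 kinases phosphorylate downstream of mTOR, had a fold change nearer to 0 than the median. Its normalised counts at 48 h were 22398, 19933 and 19646 in SCS pigs 1, 3 and 5 and 10432, 12294 and 14985 in HOPE pigs 2, 4 and 6. The groups did not overlap, and RPS6 was lower in HOPE by a log2 fold change of -0.73 ± 0.21 (limma, adjusted p = 0.0468). RPSA, which also serves as a laminin-binding protein, stood at 8909, 10957 and 9846 in SCS and 4840, 5949 and 8629 in HOPE. Its groups were likewise apart, but with -0.65 ± 0.23 RPSA missed the threshold (adjusted p = 0.0822).

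Among the large subunit genes, RPL37 had the most negative fold change. In SCS pigs 1, 3 and 5 RPL37 went from 8074, 10561 and 14566 normalised counts at 0 h to 12535, 20486 and 24607 at 48 h. In HOPE pigs 2, 4 and 6 it went from 4966, 7296 and 13013 to 4774, 4818 and 10156. HOPE pig 6 began within the SCS range and ended below all 3 SCS hearts. The RPL37 fold change at 48 h was -1.59 ± 0.40 (limma, adjusted p = 0.0308).

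RPL35 showed the same order, with 10327, 14317 and 17491 normalised counts in SCS and 4447, 4971 and 7726 in HOPE at 48 h. Its fold change was -1.31 ± 0.29 (limma, adjusted p = 0.0238), and no HOPE library reached the lowest SCS library. RPL24 was at 14472, 14932 and 15696 in SCS and 5994, 6138 and 10208 in HOPE, a fold change of -1.06 ± 0.25 (adjusted p = 0.0246). The SCS hearts were close together for RPL24, and the HOPE hearts were all below them. The smallest called differences of this subunit were those of RPL4 (-0.79 ± 0.21, adjusted p = 0.039), RPL6 (-0.69 ± 0.20, adjusted p = 0.043) and RPL29 (-0.65 ± 0.17, adjusted p = 0.038), while RPL38 (-1.51 ± 0.41, adjusted p = 0.0405) and RPL19 (-1.29 ± 0.38, adjusted p = 0.0469) stood near RPL37.

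The stalk genes had unequal fold changes, and differences between them were not tested. RPLP0 was at 23580, 32171 and 25949 normalised counts in SCS and 18886, 21886 and 29315 in HOPE at 48 h. HOPE pig 6 exceeded 2 of the 3 SCS hearts, and the fold change of -0.23 ± 0.24 was within the spread between pigs (limma, adjusted p = 0.542). RPLP1 was at 21182, 28415 and 28226 in SCS and 9874, 13181 and 20875 in HOPE, and RPLP2 at 10887, 17220 and 18263 against 4536, 4691 and 10709. Both had groups that did not overlap, and fold changes of -0.88 ± 0.30 for RPLP1 and -1.30 ± 0.42 for RPLP2 that missed the threshold (adjusted p = 0.0698 and 0.0587) and passed it with the pig block (adjusted p = 0.0234 and 0.0141).

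RPL3 and its striated muscle paralogue RPL3L gave different values. At 48 h RPL3 was at 4570, 11614 and 12945 normalised counts in SCS pigs 1, 3 and 5 and at 3494, 3688 and 6793 in HOPE pigs 2, 4 and 6. RPL3L was at 5010, 5323 and 2774 in SCS and 3461, 4195 and 4923 in HOPE. SCS pig 1 lay among the HOPE pigs for RPL3, and for RPL3L the groups overlapped throughout. The fold change of RPL3 was -0.99 ± 0.43 (limma, adjusted p = 0.138, and 0.0429 with the pig block) and that of RPL3L was -0.02 ± 0.29 (adjusted p = 0.977). The difference between the 2 genes was not tested.

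The ratio of RPL3L to RPL3 counts, which is not per length and is compared only between libraries, was 0.873, 0.432 and 0.488 in SCS pigs 1, 3 and 5 at 0 h and 1.10, 0.458 and 0.214 at 48 h. In HOPE pigs 2, 4 and 6 it was 1.02, 1.05 and 0.432 at 0 h and 0.991, 1.14 and 0.725 at 48 h. At 24 h the HOPE ratios of 0.855, 1.63 and 1.35 were all above the SCS ratios of 0.770, 0.369 and 0.422, and at the other times the groups overlapped. Within each pig the ratio thus differed between times as well.

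**Figure D4:**
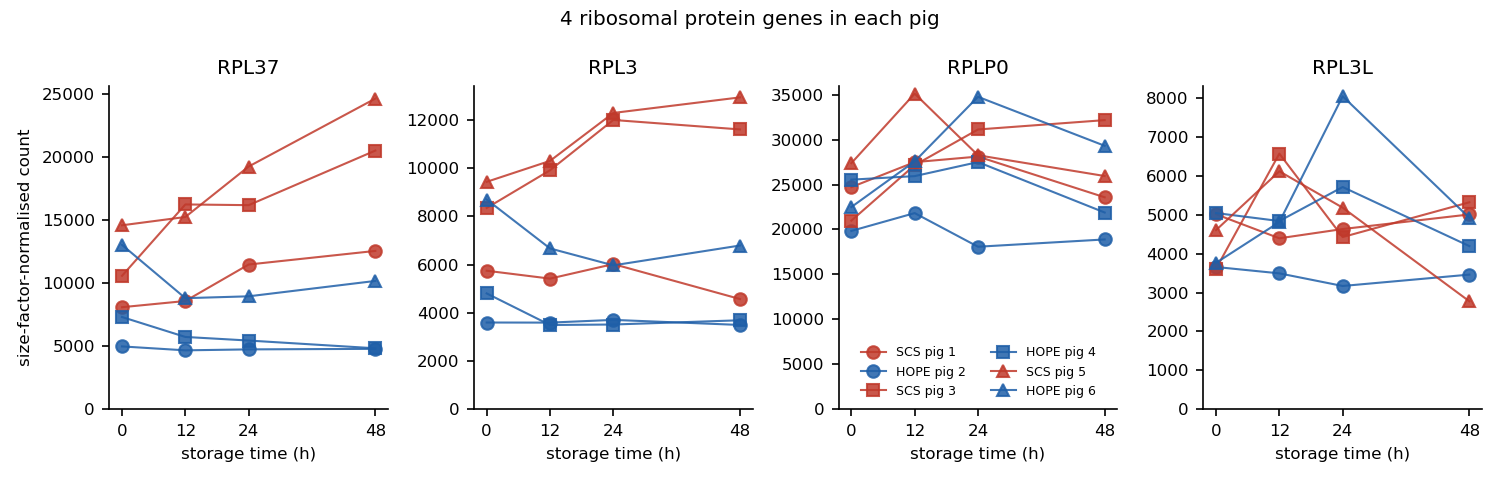
Size-factor-normalised counts of 4 ribosomal protein genes against storage time in h, 1 line a pig (SCS pigs 1, 3 and 5, HOPE pigs 2, 4 and 6). For RPL37 the SCS lines end at 12535 to 24607 and the HOPE lines at 4774 to 10156. For RPL3 SCS pig 1 runs among the HOPE pigs except at 24 h, where it is at 6022 and HOPE pig 6 at 5969. The lines of RPLP0 and RPL3L are mixed.

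The other paralogues had fold changes nearer to 0 than the members' median. RPS27L, a paralogue of RPS27 known as a p53 target, was at 1917, 1305 and 1228 normalised counts in SCS and 848, 730 and 980 in HOPE at 48 h. RPS27L was lower in all HOPE hearts, with a fold change of -0.78 ± 0.20 (limma, adjusted p = 0.0311). RPL26L1 missed the threshold at -0.62 ± 0.21 (adjusted p = 0.0762), and RPL7L1 was at -0.27 ± 0.17 (adjusted p = 0.301).

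The counts at 48 h also depended on which pigs were kept. The members' median without the block stayed between -1.31 and -0.80 (log2) when 1 pig was left out. Without pig 1 52 members were lower and without pig 6 61, against 10.7% and 9.4% of all genes; without any of pigs 2, 3, 4 or 5, or without the 48 h library of SCS pig 5, the unblocked count was 0. With the block these counts were 58 and 63 without pigs 1 and 6 (against 12.4% and 9.81% of all genes), 10 without pig 3 (against 0.823%) and 0 without pigs 2, 4 or 5. The blocked fit that dropped SCS pig 5 at 48 h alone called 48, against 2.05%. Scaling to all counts, which includes the mitochondrially encoded genes, turned the members' median from -0.99 to 0.13 while the median of all genes moved to 1.12. Under that scaling 1 member (RPL3L, 1.10 ± 0.44, limma adjusted p = 0.035) was higher and 0 were lower at 48 h, among 57.1% of all genes called higher (8079 genes) and 0.283% called lower (40 genes), against 543 and 341 genes in the deposited scaling. The members' median lay below the median of all genes under both scalings.

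The change over 48 h, HOPE minus SCS, was negative for 66 of 67 members with a median of -0.59 (log2), against 0.06 for all genes. No member passed in limma, edgeR or DESeq2, and 0.0% of all genes were called lower. Before adjustment 5 members passed as lower, against 1.62% of all genes. With the pig block 5 members passed as lower, against 0.106% of all genes: RPL37 at -1.12 ± 0.19 (blocked limma, adjusted p = 0.0348), RPL35 with the same adjusted p, RPL38 at -0.96 ± 0.18 (adjusted p = 0.0464), RPS19 at -0.92 ± 0.18 (adjusted p = 0.0483) and RPL28 at -0.88 ± 0.17 (adjusted p = 0.0483). With nuclear-total scaling and the block 3 passed, against 0.0707% of all genes. The count was 18 without pig 1 and 3 without pig 3, against 0.828% and 0.135% of all genes, and 0 without any other pig or without the 48 h library of SCS pig 5.

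Other lists of the translation machinery are described by their counts and medians at 48 h, HOPE against SCS, in the deposited scaling, where 3.84% of all genes were called higher and 2.41% lower. Of 6 ribosome-associated genes outside the rule none passed (median -0.32), and RACK1, a scaffold protein on the small subunit, was at -0.45 ± 0.22 (limma, adjusted p = 0.191). Of 8 elongation factors 1 was higher and 0 lower (median 0.19): EEF2K, the kinase that inhibits EEF2, was higher by 1.31 ± 0.33 (adjusted p = 0.0311), and EEF1A1, whose mRNA is itself of the TOP class, was at -0.94 ± 0.30 (adjusted p = 0.0584). Of 31 initiation factors 2 were higher and 0 lower (median 0.10), namely EIF4G1 at 1.08 ± 0.21 (adjusted p = 0.0155) and EIF2S1 at 0.87 ± 0.23 (adjusted p = 0.0384).

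Of 32 ribosome biogenesis factors 3 were higher and 0 lower (median 0.11), among them NOP14 at 1.02 ± 0.20 (limma, adjusted p = 0.0151) and RRP12 at 1.10 ± 0.31 (adjusted p = 0.0413), both needed for small subunit assembly. Of 15 genes of RNA polymerase I and its factors 2 were higher, POLR1A (1.13 ± 0.28, adjusted p = 0.0295) and POLR1B (0.90 ± 0.22, adjusted p = 0.0299), and 1 was lower, TAF1D (-0.80 ± 0.19, adjusted p = 0.0243). Of 21 genes of the mTOR pathway and TOP mRNA control 3 were higher and 0 lower (median 0.21): MTOR by 1.08 ± 0.25 (adjusted p = 0.0247), RPTOR by 0.86 ± 0.22 (adjusted p = 0.0333) and LARP1, which binds TOP mRNAs, by 0.70 ± 0.19 (adjusted p = 0.0384). Of 14 genes of ribosome stress and quality control 1 was higher, GCN1 (0.83 ± 0.21, adjusted p = 0.0322). Over all genes too, more were called higher (543) than lower (341).

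Several other gene groups moved beside the ribosomal protein genes at 48 h. Of 19 short housekeeping mRNAs outside the ribosome all 19 had a negative fold change, 2 were lower (8 with the block) and the median was -0.68, with MYL6 at -1.37 ± 0.36 (limma, adjusted p = 0.036) and SNRPG at -0.90 ± 0.25 (adjusted p = 0.04). Of the 13 mitochondrially encoded genes 6 were lower (median -2.06). Of 11 leukocyte markers 4 were lower (median -0.84), and their sums overlapped, at 2801 to 5902 normalised counts in SCS and 4424 to 5334 in HOPE. Red cell markers summed to 174 to 690 in HOPE and 36.4 to 103 in SCS, with up to 2 of 5 at 0. Of 9 cardiomyocyte markers none passed (median 0.34). None of 5 smooth muscle and pericyte markers passed (median -0.67). HOPE sums of these markers were lower at 0 h, with 7678 to 19746 normalised counts against 20209 to 24442 in SCS. The same held at 24 h (13432 to 15992 against 18179 to 28130). The sums overlapped at 12 h (7667 to 17212 against 15893 to 18725) and at 48 h (9611 to 17178 against 16969 to 28843). Endothelial sums were apart at 12 h, at 17025 to 34143 in HOPE and 36330 to 51132 in SCS. They overlapped at 0, 24 and 48 h, and at 48 h they were 22744 to 35358 in HOPE and 13526 to 51328 in SCS. None of 7 fibroblast markers passed at 24 or 48 h, and their sums were 68191 to 72570 in HOPE and 92993 to 111960 in SCS at 24 h, while at 48 h they overlapped. The part of short transcripts, cell makeup or mitochondrial RNA in the ribosomal protein difference was not tested.

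After 2 h of NMP, no ribosomal protein gene passed a test between HOPE storage times. Their share of the nuclear total was 4.28% and 4.28% after 3 h, 4.49% and 4.03% after 24 h, and 4.25% and 4.29% after 48 h of HOPE. Of the 41 members 39 reached the mean of 10 TPM needed for the test, RPL10L and RPS27L being below it. In limma 0 of 39 passed in each of the comparisons of 24 with 3 h, 48 with 3 h and 48 with 24 h, 0 did so before adjustment, and 0.0% of all 4388 genes were called lower. The members' medians were 0.06, 0.05 and 0.00 (log2), against 0.22, 0.02 and -0.19 for all genes. The widest single values were those of RPL14, at -0.49 ± 0.45 for 48 against 24 h (adjusted p = 0.996), and RPS21, a small subunit protein, at 0.45 ± 0.28 for 48 against 3 h (adjusted p = 0.742). With 2 libraries a group the SE of a member was mostly near 0.3, so differences of that size were not detectable.

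The lone SCS library after NMP differed from the HOPE libraries, and in a direction that depended on the total used. It was set against the 2 libraries after 24 h of HOPE, and limma assumed that it varies like the HOPE groups. In TPM 19 of 39 members were lower and none higher, with a median of -0.87 (log2), but 51.8% of all 4388 genes were called lower and their median was -1.12. With nuclear-total scaling 14 were lower, against 42.8% of all genes, and the medians were -0.57 and -0.84. The share of members called lower was thus below the background in both scalings. In TPM 38 of the 39 members were below every HOPE library, as were 66.5% of all tested genes.

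RPL14, a large subunit protein, was the member farthest below HOPE. It stood at 233 and 114 TPM after 3 h, 286 and 161 TPM after 24 h and 128 and 182 TPM after 48 h of HOPE, and at 27.5 TPM in the SCS library. The SCS library was far below every HOPE library for RPL14, whose fold change was -2.92 ± 0.55 (limma, adjusted p = 0.00412). RPL27 followed at -1.61 ± 0.37 (adjusted p = 0.00894), RPS4X at -1.43 ± 0.34 (adjusted p = 0.0104) and RPS6 at -1.29 ± 0.36 (adjusted p = 0.0187). RPS16 was at 371 TPM in SCS and 380 to 449 TPM in HOPE, a fold change of -0.09 ± 0.34 (adjusted p = 0.832), and RPL38 at -0.20 ± 0.36 (adjusted p = 0.636).

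Gene IDs without a name held 64.7% of the nuclear TPM of the SCS library and 32.0% to 37.0% of the HOPE libraries. Alone 2 of them, ENSSSCG00000025162 and ENSSSCG00000021356, held 34.3% against 0.948% to 4.51%; they were singled out after their values were seen. When libraries were scaled to the total of nuclear genes that carry a name, the share of the members was 8.28% in the SCS library and 5.96% to 6.75% in HOPE. Under that scaling 4 members were higher than after 24 h of HOPE, against 11.9% of all genes, and 1 was lower, against 14.4%, with a median of 0.34 for members and 0.09 for all genes. The higher ones were RPS16 (1.16 ± 0.24, limma adjusted p = 0.018), RPL38 (1.04 ± 0.22, adjusted p = 0.0201), RPLP1 (1.03 ± 0.22, adjusted p = 0.0197) and RPS23 (0.81 ± 0.22, adjusted p = 0.038), and RPL14 was the lower one (-1.70 ± 0.48, adjusted p = 0.0458).

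**Figure D5:**
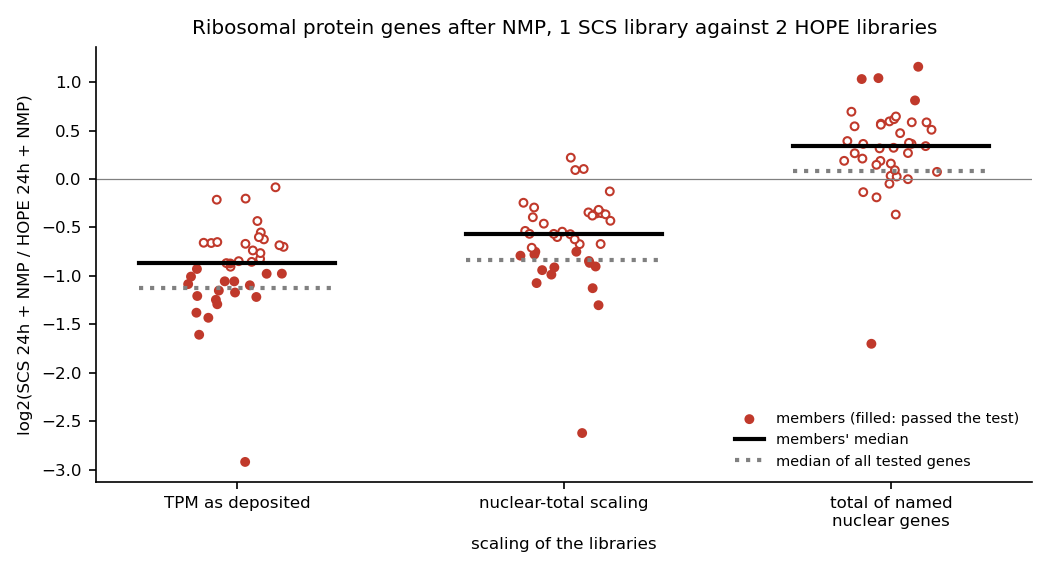
Log2 fold change of the 39 tested ribosomal protein genes in the SCS library after NMP against the 2 libraries after 24 h of HOPE and NMP, under 3 scalings of the libraries; filled points passed in limma, solid lines are medians of the members and dotted lines those of all genes. The cloud moves from a median of -0.87 in TPM to 0.34 with the total of named nuclear genes, and RPL14 stays lowest in each.

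Cell markers differed in the same library. The 6 cardiomyocyte markers found summed to 2466 TPM in the SCS library and 38051 to 61252 TPM in the HOPE libraries, none of them at 0, and all 6 were lower (median -4.27). Of 5 fibroblast markers 4 were higher (median 1.23), and red cell markers summed to 6161 TPM against 34.2 to 3125 TPM, with up to 1 of 4 at 0. Endothelial markers summed to 141 TPM against 163 to 404 TPM, and leukocyte markers to 131 TPM against 44.1 to 115 TPM. The markers of the cell type that the labels name were thus lowest in this library. The part of these differences in the values of the ribosomal protein genes was not tested, and with 1 library the condition and the heart cannot be told apart. Leaving out replicate 1 or 2 of the 24 h HOPE libraries took the count of called members from 19 to 3 and 1, against 35.7% and 28.4% of all genes.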

How the data were processed

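Gene expression was measured by RNA sequencing of poly(A) libraries from 24 storage libraries (arm 1) and 7 libraries after NMP (arm 2). The deposited arm 1 values are a signal, counts that the authors had scaled with a size factor for each library, as the file headers and values show; 100% of the values gave whole reads at a tolerance of 1e-06, and the recovered reads were used by edgeR 4.0.16 and DESeq2 1.42.0 as alternatives. The deposited arm 2 values were already scaled to an equal total in every library and were taken as TPM. The equal sums do not show that the values were also divided by length. Depth is unknown and count tests could not be run. Per the submitters' processing notes the tools were FastQC, bcl2fastq 2.17, Trimmomatic 0.36, HISAT2 2.2.1, STAR 2.5.2b, Subread 1.5.2, featureCounts 2.0.6 and DESeq2 with Sscrofa11.1; which tool served which arm, and the strand setting of the counting, are not given in the sources used here. Reads of ribosomal protein genes can be shared with their many processed pseudogenes, and the authors' treatment of such reads is likewise not stated there. Another 11 columns of the arm 2 table were not used.

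Each arm was fitted once with limma 3.58.1 (R 4.3.3; lmFit, contrasts, eBayes with a mean trend) on log2(value + 1) over genes with a mean of at least 10, which left 14141 genes for arm 1 and 4388 for arm 2. Benjamini-Hochberg adjustment ran over all of these genes, with a threshold of 0.05. Fold changes are on this log2 scale, which understates changes of low genes. The design had been written for normalised counts in both arms, and both settings stayed the same for TPM. Nuclear-total scaling divides a library by the sum of all genes other than the 13 mitochondrially encoded ones. The alternatives were other scalings, a pseudocount of 10, no filter, a pig block, other tools and leaving out pigs or libraries.

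The same pig gave its 4 arm 1 libraries, and deviations from group means correlated in all same-pig pairs (18 SCS pairs with r between 0.232 and 0.72, 18 HOPE pairs between 0.399 and 0.73), so blocked values are given where they changed a count: changes over time had a coefficient for each pig, and HOPE against SCS used a within-pig correlation of 0.44. Pigs are the replicates of arm 1. Nothing in the labels says that arm 2 libraries of a group came from separate animals, so p-values there reflect a spread that may be technical. Data were also simulated with a chosen pig effect and dispersion that were not fitted to these libraries. There limma called 22.1%, 89.4% and 100% of genes changed by a log2 of 1, 2 and 3 in SCS at 48 against 0 h (14079 genes). Under those settings most changes of 1 log2 unit were missed, and the power in the real libraries may differ.

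Members and lists were chosen with earlier results of these data known. Members were named by a rule: the 5 highest and 5 lowest called members per comparison (or the 3 of smallest p), the members farthest from the median, the stalk genes, RPL3, RPL3L and other paralogues, RPSA, RPS6 and the 5 of highest mean. List genes were the up to 4 of smallest p. Gene names came from the files; positions were looked up by symbol in RefSeq's Sscrofa11.1 gene table. Values of a few single genes are not reported here and are left out of the plots by gene; counts and medians include them.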

Additional observations from a re-analysis of the deposited data

Results flagged for a closer look

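The share of the nuclear total taken by the ribosomal protein genes moved up in every SCS pig and down in every HOPE pig. The mean change in HOPE minus that in SCS was -1.14 percentage points from 0 to 12 h, -1.73 points to 24 h and -1.75 points to 48 h. The difference was not tested. In the share of all values, which counts mitochondrially encoded genes, the mean changes at 12, 24 and 48 h were 0.011, 0.142 and -0.789 points in SCS and -0.125, -0.318 and -0.232 points in HOPE, so HOPE lay below SCS at 12 and 24 h and above it at 48 h.

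Of the 67 members, 30 were up in all SCS pigs and down in all HOPE pigs at 48 h, which is 44.8% of the members against 2.32% of all tested genes. This difference was not tested either. With nuclear-total scaling the count was 34 and with scaling to all counts it was 0.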

How the results depend on the processing

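The numbers of called members below are against 0, 0, 1 and 22 as reported for SCS 48 h against 0 h and for HOPE against SCS at 12, 24 and 48 h, 0 for the change over 48 h and 19 for SCS against HOPE after NMP; all settings with names or with the 48 h library of SCS pig 5 left out were chosen after seeing the data. SCS 48 h against 0 h gave 20 with the replicate block, against 1.08% of all genes called higher. It gave 9 with nuclear-total scaling and the block, against 0.58%, and 9 with the total of named nuclear genes and the block. With scaling to all counts it gave 1. Under that scaling the median member changed by -0.25, -0.04 and -1.32 (log2) in SCS pigs 1, 3 and 5, and 0 members were up in all 3. HOPE against SCS at 12 h gave 1 with DESeq2. At 24 h it gave 2 with reference names added, 0 with scaling to all counts, no filter, edgeR or only the libraries compared, 25 with DESeq2, 51 with the block, 54 and 59 with the block and the nuclear or named nuclear total, and 52 with the block without the 48 h library of pig 5. At 48 h it gave 1 with scaling to all counts, 14 with no filter, 43 with DESeq2, 0 with only the libraries compared, 56 with the block, 50 and 60 with the block and the nuclear or named nuclear total, and 48 with the block without that library. edgeR called 15 at 48 h, and over all genes 498 higher and 343 lower, where DESeq2 called 1017 and 914. The change over 48 h gave 5 with the block and 3 and 7 with the block and either total. SCS against HOPE after NMP gave 6 with no filter and 5 with named nuclear genes. The share of all genes called changed with the setting as well. For genes lower in HOPE at 48 h it was 2.41% as reported, 4.63% with the block and 3.69% with the block and the nuclear total. A count given here without the share of all genes under its setting is not a result about the members. The cause of the differences between settings was not tested.

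Leaving out 1 pig or library gave 0 to 1 called members for HOPE against SCS at 0 h, 0 to 46 at 12 h, 0 to 57 at 24 h, 0 to 61 at 48 h and 1 to 21 after NMP, and 0 in all other comparisons. With the block the range was 0 to 14 for SCS 48 h against 0 h. For HOPE against SCS it was 0 to 60 at 24 h and 0 to 63 at 48 h, and for the change 0 to 18. With nuclear-total scaling and the block the ranges, in that order, were 0 to 11, 0 to 61, 0 to 61 and 0 to 18. Without the block, the highest counts at 12, 24 and 48 h came without pig 6, against 4.56%, 7.18% and 9.4% of all genes. With the block, the highest at 24 and 48 h also came without pig 6, against 8.21% and 9.81%. For nuclear-total scaling with the block such shares are not given here. In arm 2 the correlations of same-numbered libraries ran from 0.09 to 0.384. With 2 libraries a group both numbers give the same value by construction, so the 6 pairs held only the values 0.09, 0.162 and 0.384. These cannot decide whether numbers pair. A replicate block there gave 0 members between HOPE storage times, and no block can be fitted for the lone SCS library.

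As a share of all values the members held 3.05%, 3.06%, 3.19% and 2.26% at 0, 12, 24 and 48 h of SCS, 2.72%, 2.60%, 2.41% and 2.49% at 0, 12, 24 and 48 h of HOPE, 2.32%, 2.38% and 2.41% after 3, 24 and 48 h of HOPE with NMP and 1.32% after SCS with NMP. As a share of named nuclear genes they held 7.78% at 48 h of SCS, 6.50%, 6.28% and 6.64% in the HOPE groups with NMP and 8.28% after SCS with NMP; without the 3 members of highest mean the NMP groups were at 3.54%, 3.52%, 3.50% and 2.34%. With scaling to all counts, RPL4 (0.32), RPS27L (0.34), RPS6 (0.39), RPL6 (0.43) and RPL29 (0.47) turned to a positive log2 fold change at 48 h. With named nuclear genes, RPS26 (0.19), RPL13 (0.27), RPL4 (0.27), RPS28 (0.32) and RPL34 (0.37) did so after NMP. Scaling divides each library by another total, so it shifts all genes together.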
